A study of Mus musculus with 23 samples.

Results

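The genes described here are those with more transcript in Zbtb11 knockout (KO) cells than in control cells in every replicate. A gene was included if it was autosomal and protein-coding, had a mean of at least 5 CPM (counts scaled to the same total in each library) over the 3 EtOH control and 3 KO libraries, and had a CPM at least 25% higher in the KO than in the EtOH library in each of the 3 pairs with the same replicate number. Symbols starting with Zfp, Hist, Rpl or Rps were left out. The rule found 38 genes among 9695 that met its other conditions (the eligible genes), out of 37310 annotated genes. By the mirrored rule, 145 genes were lowered (a ratio of 0.8 or less in every pair), and 9512 eligible genes were neither. Because the KO/EtOH ratios chose the 38 genes, their values in that comparison are given as a description, whereas ChIP-seq coverage and the 4OHT control libraries were not used to choose them.

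Zbtb11 is a transcription factor with a BTB domain and zinc fingers, and factors of this family can activate or repress genes from the promoters they bind. Many housekeeping promoters lie in CpG islands and are shared by a pair of genes transcribed away from each other (a head-to-head pair), so that a single bound region can serve both. The raised genes have diverse roles, among them synthesis of NAD, GPI anchors, conjugation of the ubiquitin-like protein UFM1, restraint of mTORC1 and DNA fragmentation in apoptosis.

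RNA-seq was done in E14 mouse embryonic stem cells (ESCs) after 48 h of treatment, with 3 libraries per group. The EtOH control and the KO cells were both Zbtb11lox/lox cells with ERt2-Cre, a Cre recombinase activated by 4-hydroxytamoxifen (4OHT), at the Rosa26 locus, treated with the carrier ethanol or with 250 nM 4OHT. The 4OHT control was Zbtb11WT/WT Rosa26 WT cells given 250 nM 4OHT, so genotype and treatment both set it apart from EtOH-treated cells and their effects cannot be told apart. ChIP-seq was done in untreated E14 cells, with an antibody to Zbtb11 in 4 libraries of Zbtb11WT/WT cells and with an antibody to FLAG in 3 libraries of Zbtb11FLAG/FLAG and 2 of Zbtb11WT/WT cells, and not in the KO cells. The libraries held 14301457 to 23876604 counts on genes. The ESC genes Pou5f1 (616 to 819 CPM), Sox2 (490 to 558 CPM) and Nanog (448 to 681 CPM) were present in all 9 libraries. The annotation has no gene entry of its own for Zbtb11, whose reads fall in a joint entry with the ribosomal gene Rpl24 at 361 to 378 CPM in all 9 libraries, so loss of Zbtb11 could not be followed in these counts. The replicate 1 libraries stood apart from the others. The biological variation between replicates, a single edgeR estimate shared by all genes, was 17.4% over all 9 libraries and 6.8% without replicate 1. In bulk samples, fewer cells of a type and less RNA per cell cannot be told apart.

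The DNA just upstream of the raised genes is shown first, because the ChIP-seq windows described later overlap it. Each run ends at the base before the annotated gene start, reads 5′ to 3′ on the strand of the gene, and stops at 120 bases or, where it comes sooner, at an annotated exon of any gene. Capitals mark CCGGAAG or its reverse complement CTTCCGG, a motif of the kind bound by ETS factors such as GABP (positions are those of mm9, the same assembly as NCBIM37). Of the 24 raised genes with a strong ChIP-seq window, 20 had such a run of at least 20 bases, and the motif lay in 11 of them and not in 9. Of the 11, those of 8 genes are printed, to show its place relative to the start, and those of Ints12, Vps52 and Acp2 are not. The printed run of Pigc lies inside another annotated gene, 4930558K02Rik. The 8 are Pigc (chr1:163899280-163899316, plus strand), Nmnat1 (chr4:148859312-148859337, minus strand), Snrnp200 (chr2:127034017-127034121, plus strand), Tatdn3 (chr1:192886812-192886890, minus strand), Tmem68 (chr4:3502001-3502021, minus strand), Zbtb45 (chr7:13595172-13595291, minus strand), Mtap1s (chr8:73429753-73429872, plus strand) and D2Wsu81e (chr2:30033980-30034099, minus strand).
Pigc: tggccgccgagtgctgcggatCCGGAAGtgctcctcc
Nmnat1: ggattcgcgcaCTTCCGGctgtgtgg
Snrnp200: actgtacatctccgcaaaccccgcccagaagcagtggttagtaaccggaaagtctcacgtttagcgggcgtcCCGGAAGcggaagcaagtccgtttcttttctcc
Tatdn3: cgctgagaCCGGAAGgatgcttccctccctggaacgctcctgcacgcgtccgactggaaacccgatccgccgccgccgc
Tmem68: acagcagctaCCGGAAGgggc
Zbtb45: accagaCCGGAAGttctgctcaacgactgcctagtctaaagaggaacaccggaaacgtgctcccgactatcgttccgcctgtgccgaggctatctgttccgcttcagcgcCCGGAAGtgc
Mtap1s: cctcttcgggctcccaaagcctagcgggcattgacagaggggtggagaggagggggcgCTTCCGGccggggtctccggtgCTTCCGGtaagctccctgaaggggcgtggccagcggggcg
D2Wsu81e: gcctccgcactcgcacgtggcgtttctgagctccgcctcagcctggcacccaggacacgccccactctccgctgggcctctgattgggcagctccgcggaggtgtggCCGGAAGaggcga
Of the 9 runs with no match, those of the genes with the largest ratios are printed. They are Prrg2 (chr7:52318048-52318167, minus strand, inside the gene Nosip on the other strand), Ufc1 (chr1:173225156-173225275, minus strand), Tbc1d7 (chr13:43266729-43266848, minus strand), Dffb (chr4:153349236-153349302, minus strand) and Cpped1 (chr16:11909539-11909658, minus strand). The run of Cpped1 lies inside another annotated gene, Gm9961.
Prrg2: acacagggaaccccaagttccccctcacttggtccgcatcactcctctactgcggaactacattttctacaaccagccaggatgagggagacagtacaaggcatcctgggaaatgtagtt
Ufc1: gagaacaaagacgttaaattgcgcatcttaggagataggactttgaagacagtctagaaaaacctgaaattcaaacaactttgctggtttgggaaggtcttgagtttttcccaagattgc
Tbc1d7: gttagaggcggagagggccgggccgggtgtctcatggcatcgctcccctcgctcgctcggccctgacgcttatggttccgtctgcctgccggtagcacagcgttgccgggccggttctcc
Dffb: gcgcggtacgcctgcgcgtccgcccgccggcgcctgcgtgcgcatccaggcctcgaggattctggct
Cpped1: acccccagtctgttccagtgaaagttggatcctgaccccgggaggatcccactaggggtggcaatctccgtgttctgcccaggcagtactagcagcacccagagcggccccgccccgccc

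Prrg2, which encodes a membrane protein with a Gla domain, had the largest smallest ratio. It was counted at 2.91, 2.39 and 2.42 CPM in the EtOH control libraries, 13.3, 10.8 and 11.6 CPM in the KO libraries and 2.52, 1.74 and 2.03 CPM in the 4OHT control libraries. Pigc, a subunit of the enzyme that starts synthesis of GPI anchors, was at 2.81, 2.6 and 3.22 CPM in EtOH control cells, 10, 8.28 and 8.48 CPM in KO cells and 2.24, 2.54 and 1.86 CPM in 4OHT control cells. For both genes every KO library lay far above all 6 control libraries, with pair ratios of 4.53 to 4.78 for Prrg2 and 2.63 to 3.57 for Pigc.

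Nmnat1, the nuclear enzyme that makes NAD from nicotinamide mononucleotide, was at 9.33, 8.92 and 10.4 CPM in the EtOH control, 23, 25.7 and 25.1 CPM in KO cells and 6.5, 5.84 and 6.06 CPM in the 4OHT control. Ufc1, the conjugating enzyme of UFM1, was at 35.7, 41.6 and 38.3 CPM, then 70.9, 72.4 and 75.2 CPM in KO cells, and 25.9 to 29.4 CPM in the 4OHT control. The 3 groups of libraries did not overlap for either gene, and the 4OHT control was the lowest of the groups in both. The smallest pair ratios were 2.42 for Nmnat1 and 1.74 for Ufc1.

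Tbc1d7, a subunit of the TSC complex that restrains mTORC1, was at 15.7, 15.2 and 15.1 CPM in the EtOH control, 28.4, 29.1 and 26.3 CPM in KO cells and 14.1 to 16.2 CPM in the 4OHT control. Kbtbd4, a substrate adaptor of cullin ubiquitin ligases, was at 15, 16.9 and 17.5 CPM, then 26.1, 30.1 and 32.2 CPM in KO cells, and 16.6 to 18.1 CPM in the 4OHT control. Dffb, the nuclease that cuts DNA in apoptosis, was at 7.15, 5.49 and 6.04 CPM, then 11.8, 10.7 and 11 CPM in KO cells, and 5.35 to 6.78 CPM in the 4OHT control. In these 3 genes the control groups overlapped each other and the KO libraries stood above both. 1300018I17Rik was at 9.7, 8.29 and 10.1 CPM in the EtOH control, 19.6, 16.6 and 17.9 CPM in KO cells and 13.5, 11.1 and 10.5 CPM in the 4OHT control, which lay between the other groups.

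The next 4 genes by smallest ratio were Gng12, a gamma subunit of heterotrimeric G proteins, Cpped1, a phosphatase, Parp10, a mono-ADP-ribosyltransferase, and Tor1aip1, a protein of the inner nuclear membrane that activates torsin. Gng12 was at 23.2, 13.7 and 12.3 CPM in the EtOH control and 37.7, 24.5 and 21.6 CPM in KO cells. The group means of Gng12 were 16.4 and 27.9 CPM, but its KO and EtOH libraries overlapped, and in each group replicate 1 was the highest. Tor1aip1 was at 15.8, 16.5 and 13.7 CPM in the EtOH control, 22.7, 23.5 and 23 CPM in KO cells and 13.8 to 16.2 CPM in the 4OHT control, with no overlap of KO cells and controls.

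**Figure D1:**
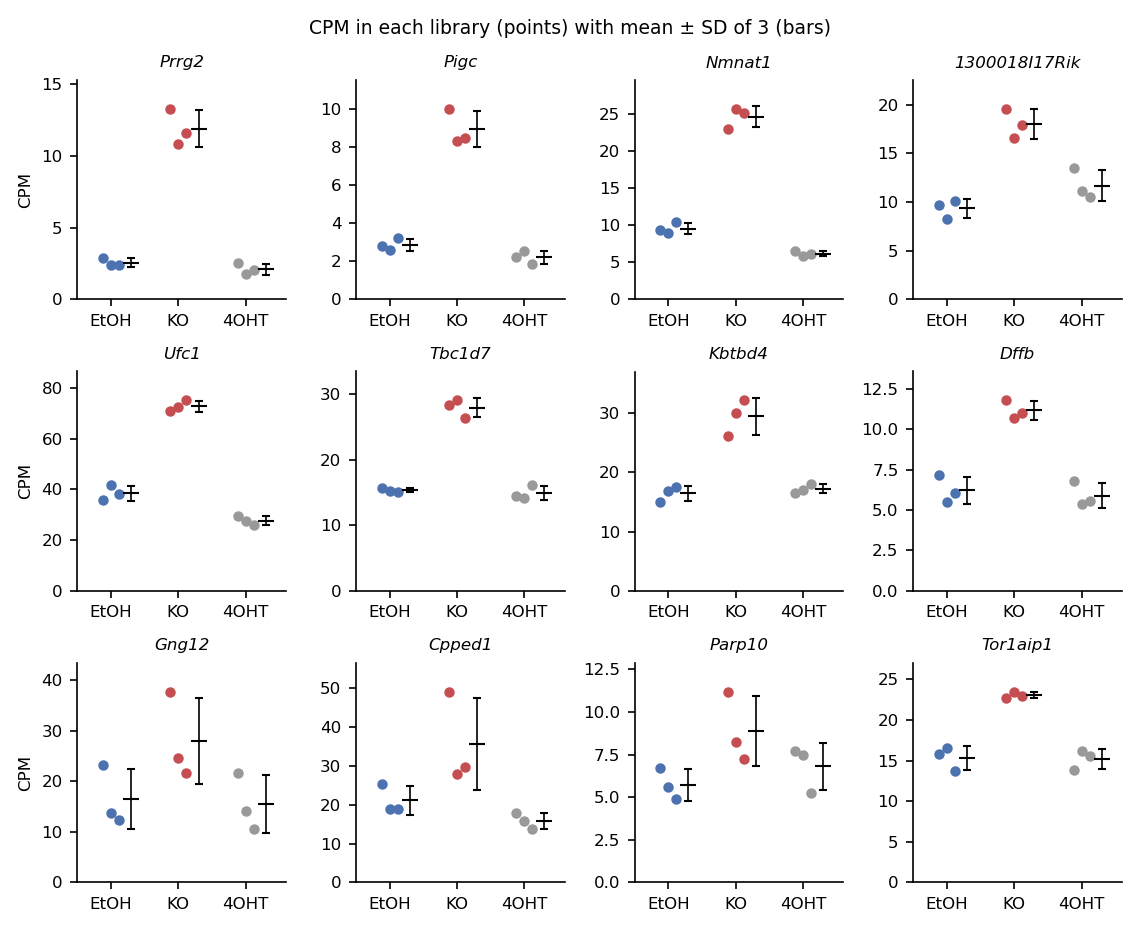
CPM (y axis, from 0) of the 12 genes with the largest smallest pair ratio in each library of the EtOH control, Zbtb11 KO and 4OHT control groups (x axis). Points are libraries and bars the mean ± SD of 3; KO libraries lie above both controls in 10 of the panels, and overlap a control for Gng12 and Parp10.

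Per kilobase of exon their median level over the 6 libraries of the rule was 5.33 CPM, against 9.28 CPM for all eligible genes. The highest levels per kilobase were those of Snrnp200 (86.5 CPM), the helicase of the U5 spliceosomal particle, and Cebpz (63.3 CPM), a nuclear CCAAT-binding protein. Snrnp200 was at 612, 541 and 544 CPM in the EtOH control and 857, 719 and 785 CPM in KO cells. Cebpz was at 201, 226 and 235 CPM in the EtOH control and 271, 302 and 313 CPM in KO cells. For both, every KO library also exceeded the 4OHT control, which reached 688 CPM for Snrnp200 and 215 CPM for Cebpz.

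Among the other genes named for a high level, Mtap1s, a microtubule-associated protein, was at 56.2 to 72.1 CPM in the EtOH control and 83.8 to 104 CPM in KO cells. Vps52, a subunit of a complex that tethers vesicles to the Golgi, was at 32.1, 41.7 and 43.5 CPM and then 43.4, 54.2 and 58.4 CPM. Zbtb45, another BTB zinc-finger gene, was at 22.9, 42 and 41.4 CPM and then 30.4, 55.1 and 56.8 CPM. The Vps52 and Zbtb45 libraries overlapped between the groups, since replicate 1 was the lowest in both. Ints12, a subunit of the Integrator complex, was at 28.3 to 33.8 CPM and then 42.3 to 45.9 CPM, and D2Wsu81e was at 37.6 to 41.2 CPM and then 49.5 to 52.4 CPM, with no overlap.

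The lowest KO library was above the highest EtOH control library for 29 of the 38 genes, beside 5.51% of eligible genes, a share that follows in part from the rule. In the unpaired edgeR fit, 8 of the 38 were past an adjusted p of 0.05 (0.0558% of 14346 tested genes were called higher), and with the replicate number as a block 31 were (0.46%). Without replicate 1 the unpaired fit called 18 of the 38 and 212 of all genes. Without replicate 2 or without replicate 3 it called 0 of the 38, and 13 or 21 of all genes, beside 129 with all replicates. The genes nearest the threshold were, just inside, Afap1l2 (25.1% higher in its smallest pair), Atf5 (25.1%) and Ring1 (25.0%), and just outside, Arid5a (24.8%), Pldn (24.7%) and Isy1 (24.6%). The set depends on scaling: with library sizes adjusted by TMM, 25 of the 38 met the rule. Among the raised genes, 15 overlap another tested gene on the opposite strand, and Parp10 overlaps Plec on the same strand. The RNA libraries were directional, but the strand setting of the counting is not given in the sources used here, so reads of overlapping genes may not be fully separated. Nlrp4f belongs to a family of similar genes and its counts are uncertain.

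The 4OHT control cells were given 4OHT and kept Zbtb11. They differ from the EtOH control in genotype too, so their values do not isolate an effect of 4OHT. The comparison of the 2 controls shares the EtOH libraries with the rule. A gene that happened to be low in those libraries would therefore appear higher in both comparisons. Between 4OHT and EtOH controls the log2 fold changes of the 38 genes had a median of 0.02, against 0.00 over all tested genes, and ranged from -0.80 for Zbtb45 to 0.81 for Nlrp4f. By the edgeR quasi-likelihood test, 0 of the 38 genes rose (background 2.05%) and 2 fell (background 2%). The 2 genes that fell were Nmnat1 (log2 fold change -0.65, SE 0.12, adjusted p = 0.0186) and Ufc1 (-0.49, SE 0.09, adjusted p = 0.0219), whose CPM values are given above. A total of 8 of the 38 had an unadjusted p under 0.05, beside 18% of all tested genes. DESeq2 called 1 of the 38 higher and 2 lower, beside 1187 of 14346 tested genes in either direction. With the replicate block 8 genes were higher and 6 lower, shares of 21.1% and 15.8% beside a background of 17% and 16.5%. Neither Nmnat1 nor Ufc1 passed when only these 2 groups were fitted (edgeR adjusted p = 0.0863 and 0.082), without replicate 2 (0.493 and 0.603) or without replicate 3 (0.35 and 0.383).

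Among the genes past the threshold only with the block, Nlrp4f, a member of the NLR family, was at 5.4, 6.32 and 6.04 CPM in the EtOH control, 7.57, 7.98 and 8.63 CPM in KO cells and 6.99, 13 and 11.3 CPM in the 4OHT control. Zbtb45 was at 14.1, 23.5 and 23.9 CPM in the 4OHT control, lower than the EtOH library of the same number in every pair. The 4OHT control was also at least 25% higher than the EtOH control in every pair for 2 of the 38 genes (5.26%, beside 4.61% of eligible genes).

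**Figure D2:**
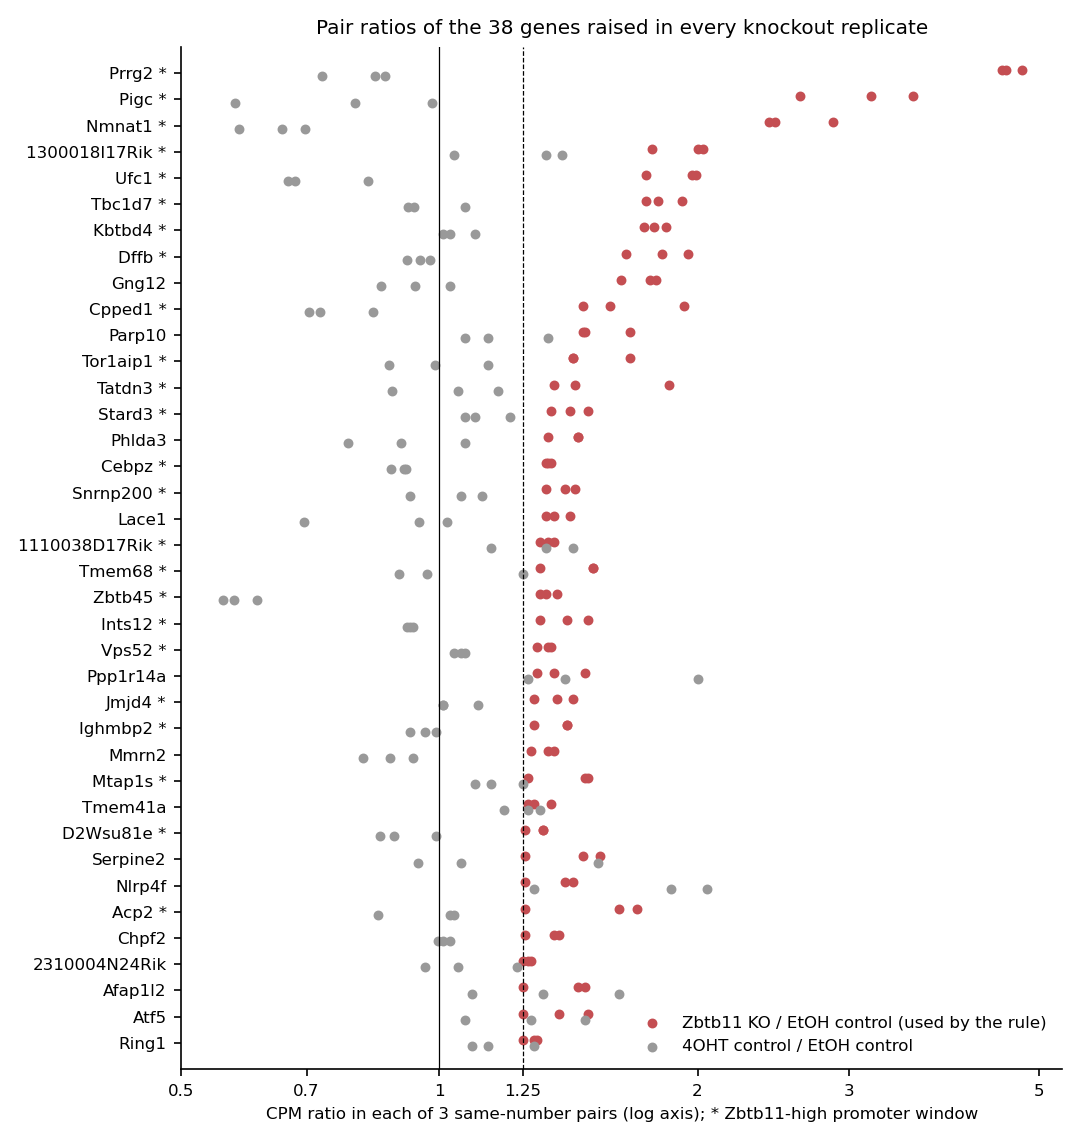
Ratio of CPM in each of 3 same-number pairs (x axis, log scale) for the 38 raised genes (y axis, ordered by smallest KO/EtOH ratio), for KO over EtOH control in red and 4OHT control over EtOH control in grey. The dashed line marks the increase of 25% that chose the genes, an asterisk marks a Zbtb11-high promoter window, and the grey points spread on both sides of 1, from Zbtb45 at the left to Nlrp4f at the right.

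Between KO cells and the 4OHT control, which differ in genotype but share the 4OHT treatment, 15 of the 38 genes rose and 0 fell in the edgeR test (background 2.73% higher and 3.72% lower). This comparison shares the KO libraries with the rule and is not independent of it. The genes that rose were the 8 described first (Prrg2, Pigc, Nmnat1, 1300018I17Rik, Ufc1, Tbc1d7, Kbtbd4 and Dffb) and Cpped1, Tor1aip1, Cebpz, Ints12, Ighmbp2, D2Wsu81e and Acp2. Prrg2 was highest, with a log2 fold change of 2.49 (SE 0.17, edgeR adjusted p = 4.42e-05). Nmnat1 and Pigc were both at 1.98 (SE 0.12 and 0.18, edgeR adjusted p = 2.08e-05 and 0.000205). Acp2, the lysosomal acid phosphatase, was at 15.7, 15 and 14.5 CPM in the EtOH control, 19.8, 24.3 and 24.6 CPM in KO cells and 13.3 to 15.5 CPM in the 4OHT control (log2 fold change 0.62 against the 4OHT control, SE 0.12, edgeR adjusted p = 0.0194).

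Against the 4OHT control, the log2 fold changes of the 38 genes had a median of 0.51, beside 0.00 over all tested genes, and 36 of the 38 had a value above 0. Nlrp4f was the lowest at -0.41 (SE 0.22, edgeR adjusted p = 0.378). With the replicate block 29 genes were higher and Nlrp4f alone lower, beside backgrounds of 16.8% and 18.1%. Without replicate 2 the count of 15 dropped to 4, and without replicate 3 to 5, while without replicate 1 there were 24 higher and 1 lower. The count over all genes moved too, from 925 to 82 without replicate 2, 114 without replicate 3 and 2645 without replicate 1. The lowest KO library was above the highest 4OHT control library for 26 of the 38 genes (14.3% of eligible genes) and above all 6 control libraries for 23 (2.17% of eligible genes).

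ChIP-seq was independent of the rule. Promoter windows were taken from 7500 regions of Zbtb11 signal shared by the Zbtb11 and FLAG antibodies, where they overlapped a promoter, taken as 2 kb before and 500 bases after a gene start. A window was called Zbtb11-high if the mean coverage of the 4 Zbtb11 libraries, as normalised by the authors, was above 309, the upper quartile plus 1.5 interquartile ranges over all windows, which 857 windows were. Of the 38 raised genes 26 (68.4%) had a promoter window and 24 (63.2%) a Zbtb11-high one. Among eligible genes the shares were 34.3% and 7.3%, and among the 145 lowered genes 91.7% and 89.7%. The share of 63.2% depends on the rule, since it was 28.9% without replicate 1 (90 genes), 40.8% without replicate 2 (71), 43.1% without replicate 3 (65) and 24.1% at a mean CPM of 1 or more (112). The 26 windows were all different. FLAG control peaks lay at 0 of the 38 promoters and at 0.155% of those of eligible genes. The cells of the KO line were not assayed by ChIP-seq here, and no test of these shares was made.

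At the 24 raised genes with a Zbtb11-high window, the signal was among the strongest in the data, with ranks from 3 to 261. The highest was at the promoter of 1300018I17Rik, ranked 3 of 7500, with coverage of 911, 1244, 831 and 1742 in the Zbtb11 libraries and 1132, 1060 and 607 in the FLAG-Zbtb11 libraries. The promoter of Tor1aip1 (rank 12) had 798, 1149, 759 and 1362 in the Zbtb11 libraries, and that of Vps52 (rank 14) 796, 1095, 643 and 1357. At Prrg2 (rank 33) coverage was 811, 1121, 793 and 1265 in the Zbtb11 libraries and 841, 810 and 509 in the FLAG-Zbtb11 libraries. The order of the libraries was much the same at each of these windows, with Zbtb11 library 4 the highest and FLAG-Zbtb11 library 3 the lowest. The other windows named for high signal were those of Snrnp200 (mean of 7 libraries 870), Ighmbp2 (861), a helicase gene, Mtap1s (861) and Kbtbd4 (812).

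The mean coverage of the 24 Zbtb11-high windows ran from 616 at Jmjd4 to 1075 at 1300018I17Rik. Over the 26 windows the median was 716 (median rank 116), beside 110 (median rank 2393) for eligible genes with a window and 647 (median rank 204) for lowered genes. The single libraries gave medians of 428 to 1040 for the raised genes and of 104 to 115 for eligible genes. The 2 windows outside the Zbtb11-high class were weak. That of Tmem41a had coverage of 12.2 to 48.3 in the 7 libraries (rank 6487), and that of 2310004N24Rik 42.7 to 106 (rank 3550). Pigc and Nmnat1, among the most raised genes, had means of 633 (rank 227) and 791 (rank 69), and Ufc1 751 (rank 88), so the order by KO/EtOH ratio was not that of coverage.

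**Figure D3:**
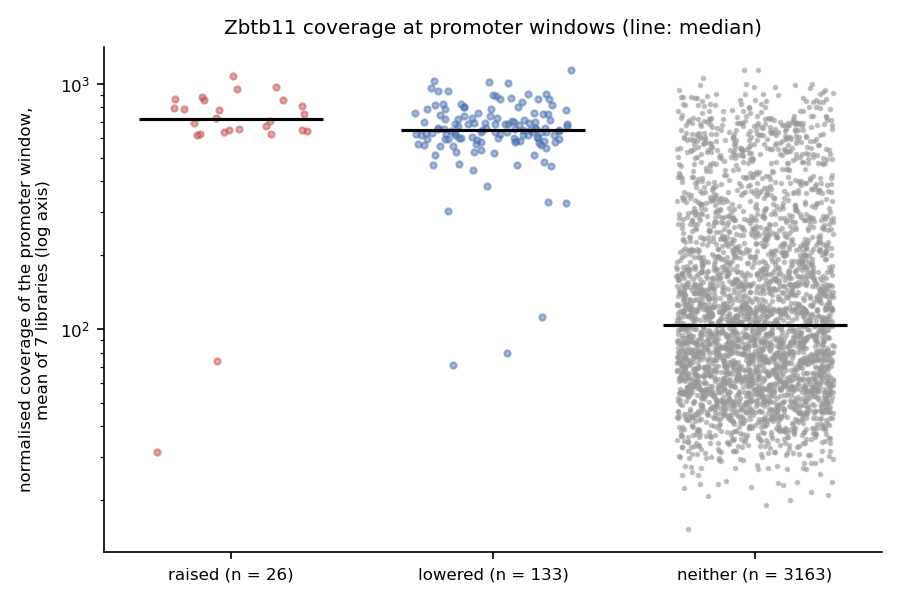
Normalised coverage of the promoter window, mean of 7 Zbtb11 and FLAG-Zbtb11 libraries (y axis, log scale), for each eligible gene with a window among raised genes, lowered genes and the rest (x axis). Horizontal lines are medians, at 716 for the 26 raised, 647 for the 133 lowered and 104 for the 3163 other genes.

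Most genes with a high Zbtb11 signal were neither raised nor lowered, although such a signal was less frequent in that much larger group. A Zbtb11-high window was found at 5.82% of the 9512 genes that were neither, beside 63.2% of raised and 89.7% of lowered genes. Of the 708 eligible genes with a Zbtb11-high window, 24 (3.39%) were raised, 130 (18.4%) lowered and 554 (78.2%) neither. No promoter window was found for 12 of the 38 raised genes: Gng12, Parp10, Phlda3, Lace1, Ppp1r14a, Mmrn2, Serpine2, Nlrp4f, Chpf2, Afap1l2, Atf5 and Ring1. Of these, Chpf2 and Ring1 have a peak in the FLAG-Zbtb11 list alone.

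The raised genes are described next by whether they had a Zbtb11-high window, with no test. The counts that follow use KO or EtOH libraries that also served the rule, so they are not independent of it. Every KO library was above every 4OHT control library for 22 of the 24 with such a window and 3 of the 12 with no window (14.3% of eligible genes), and above all 6 control libraries for 21 of 24 and 1 of 12 (2.17%), namely Chpf2, which makes chondroitin chains. All 15 genes called higher than in the 4OHT control by edgeR had a Zbtb11-high window (background 2.73%), and with the block 23 of 24 and 6 of 12 were called (16.8%). The 4OHT/EtOH ratio was above 1 in every pair for 7 of the 24 and below 1 for 11, but above 1 for 6 and below 1 for 1 of the 12. The median log2 fold change between 4OHT and EtOH controls was -0.05 for the 24 and 0.18 for the 12. The 2 sets were also unlike in level and ratio, with a median of 17.2 CPM in the EtOH control and a median smallest ratio of 1.34 for the 24, and 10.6 CPM and 1.27 for the 12. The part of level and ratio in these counts was not tested.

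Several genes with no window varied with the replicate number as well as with the group. KO and EtOH libraries overlapped for 7 of the 12, and for 2 of the 24 with a Zbtb11-high window. Every KO library was above every EtOH library for 5.51% of eligible genes. These counts use the libraries of the rule, and the part of the smaller ratios of the 12 in them was not tested. Phlda3, a p53 target that restrains Akt, was at 34.9, 21 and 23.1 CPM in the EtOH control, 46.6, 30.5 and 33.6 CPM in KO cells and 37.3, 16.4 and 20.9 CPM in the 4OHT control. Serpine2, a protease inhibitor, was at 20, 9.13 and 12.6 CPM, then 25.2, 14.1 and 18.4 CPM in KO cells, and 18.9, 14 and 13.3 CPM in the 4OHT control. Replicate 1 was the highest library of its group for both genes. Atf5, a stress-induced transcription factor, and Ring1, a ubiquitin ligase of Polycomb complexes, had 4OHT control values of 16.6 to 24.7 CPM and 7.06 to 7.75 CPM, which overlapped those of KO cells (19.3 to 23.4 CPM and 7.73 to 8.52 CPM).

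Within the Zbtb11-high class, windows of raised genes lay further downstream than those of lowered genes. The centre of the window was downstream of the annotated gene start for 19 of 24 raised genes (79.2%), 38 of 130 lowered genes (29.2%) and 51.1% of the 554 others. The median position was 63.0 bases downstream for raised genes (interquartile range 20.8 to 206.2), -32.0 for lowered genes (-54.8 to 19.0), where a negative value is upstream, and 8.0 for the others. The furthest downstream were those of Tor1aip1 (497 bases), Ufc1 (479) and Prrg2 (337). Against the nearest annotated transcript start in place of the gene start, a measure chosen after the positions had been seen, the medians were 1.0, -43.5 and -23.0 and the shares downstream 50%, 12.3% and 40.4%. No test was made of these positions, and nearly all windows have the same width, so that a centre is not the bound base itself.

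**Figure D4:**
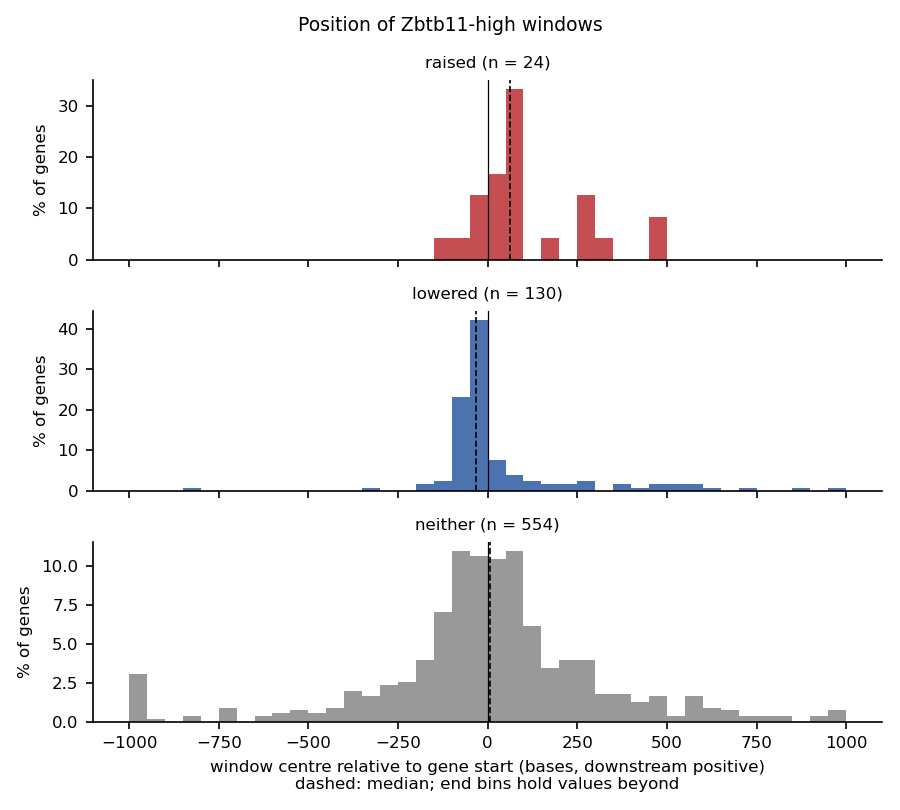
Distance from the annotated gene start to the centre of the Zbtb11-high promoter window (x axis, bases, downstream positive) as a percentage of genes (y axis) for raised, lowered and other genes. The dashed median lies at 63.0 for the 24 raised, -32.0 for the 130 lowered and 8.0 for the 554 other genes.

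The CCGGAAG motif, on either strand, was in the 300 bases from 250 before to 50 after the gene start at 15 of the 38 raised genes (39.5%), 18.8% of eligible genes and 40.7% of lowered genes. CCGGAAG and its reverse complement can share the central CCGG, and a promoter was counted once. Among promoters with a Zbtb11-high window the shares were 58.3%, 45.8% and 43.1%. In the 120 bases upstream, a stretch chosen after the sequences had been seen, 14 of the 24 raised genes with such a window had a match (58.3%), beside 29.1% of eligible and 26.2% of lowered genes in that class. Nmnat1 had a match at base -15 from the gene start, Pigc at -16 and 124, Kbtbd4 at -26 and 3, and Snrnp200 at -33. Positions are of the first base of the match, with the gene start as 0. At Ufc1 the nearest match was at 86 within the gene, and at 1300018I17Rik at 140. The consensus motif of NRF1, searched on both strands of the same 300 bases, was at 2 of the 38 (5.26%) and at 11.4% of eligible genes, and does not overlap the first.

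Head-to-head partners were common among the raised genes. A tested gene on the opposite strand starting within 1 kb and pointing away was found for 17 of 38 (44.7%), beside 16.9% of eligible and 22.8% of lowered genes, and for 14 of the 24 with a Zbtb11-high window (58.3%, beside 32.1% and 22.3%). The partners as a group did not follow the raised gene. Their log2 fold changes between KO and EtOH control had a median of -0.14, were below 0 for 13 of the 17, and ran from -0.85 to 1.41. The median was 0.00 for partners of all eligible genes and -0.36 for those of lowered genes. By edgeR 0 of the 17 passed the adjusted threshold (backgrounds 0.843% lower and 0.0558% higher). With the block 4 fell and 1 rose (backgrounds 1.79% lower and 0.46% higher).

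The partners that fell with the block were Zfp276, Nsl1, Snrpd3 and Mrpl21. Zfp276, a zinc-finger gene that starts 153 bases from 1300018I17Rik, was at 7.52, 7.87 and 7.03 CPM in the EtOH control, 3.42, 4.51 and 4.76 CPM in KO cells and 6.22, 9.28 and 8.7 CPM in the 4OHT control (log2 fold change -0.85, adjusted p = 0.000425 with the block and 0.186 without it). Every KO library was below every control library, the reverse of 1300018I17Rik at the same window. Nsl1, a kinetochore gene paired with Tatdn3 at 80 bases, was at 30.2, 18.2 and 17.4 CPM in the EtOH control and 16, 11.9 and 14.1 CPM in KO cells (edgeR with the block, adjusted p = 0.000124). Snrpd3, a core spliceosome gene paired with 1110038D17Rik at 70 bases, was at 72.9, 94.9 and 90.8 CPM and then 56.1, 77.1 and 70.1 CPM, so the groups overlapped (edgeR with the block, adjusted p = 0.000219). The raised gene 1110038D17Rik was at 10.9, 10.5 and 9.31 CPM in the EtOH control and 14.7, 13.8 and 12.5 CPM in KO cells. In the 4OHT control it was at 14.5, 15 and 10.7 CPM, which overlapped KO cells. Mrpl21, a mitochondrial ribosomal gene paired with Ighmbp2 at 116 bases, was at 42, 52.8 and 49.6 CPM and then 36.3, 42.2 and 42.9 CPM, so the groups overlapped (edgeR with the block, adjusted p = 0.00997).

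The partner that rose with the block was 1810024B03Rik, which starts 106 bases from Snrnp200. It was at 1.48, 1.34 and 1.88 CPM in the EtOH control, 4.21, 4.36 and 4.26 CPM in KO cells and 0.937 to 2.21 CPM in the 4OHT control, so both genes of the pair had their highest libraries in KO cells (log2 fold change 1.41, edgeR adjusted p = 0.122, and 0.000135 with the block). Nosip, the partner of Prrg2, the most raised gene, was at 40.3 to 48.6 CPM in the EtOH control and 41.3 to 50.5 CPM in KO cells, and Lzic, which starts 27 bases from Nmnat1, at 18.2 to 19.5 CPM and 17.2 to 20.2 CPM, so the groups overlapped for both partners. Ndufs3, a subunit of respiratory complex I paired with Kbtbd4 at 87 bases, was at 40.7 to 41.8 CPM in the EtOH control and 34.7 to 37.4 CPM in KO cells, which lay below it without overlap (log2 fold change -0.22, SE 0.08, edgeR adjusted p = 1, and 0.103 with the block). BC046331, paired with Dffb, Tor1aip2, paired with Tor1aip1, and Rps18, paired with Vps52, had log2 fold changes of -0.11, -0.06 and 0.04.

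**Figure D5:**
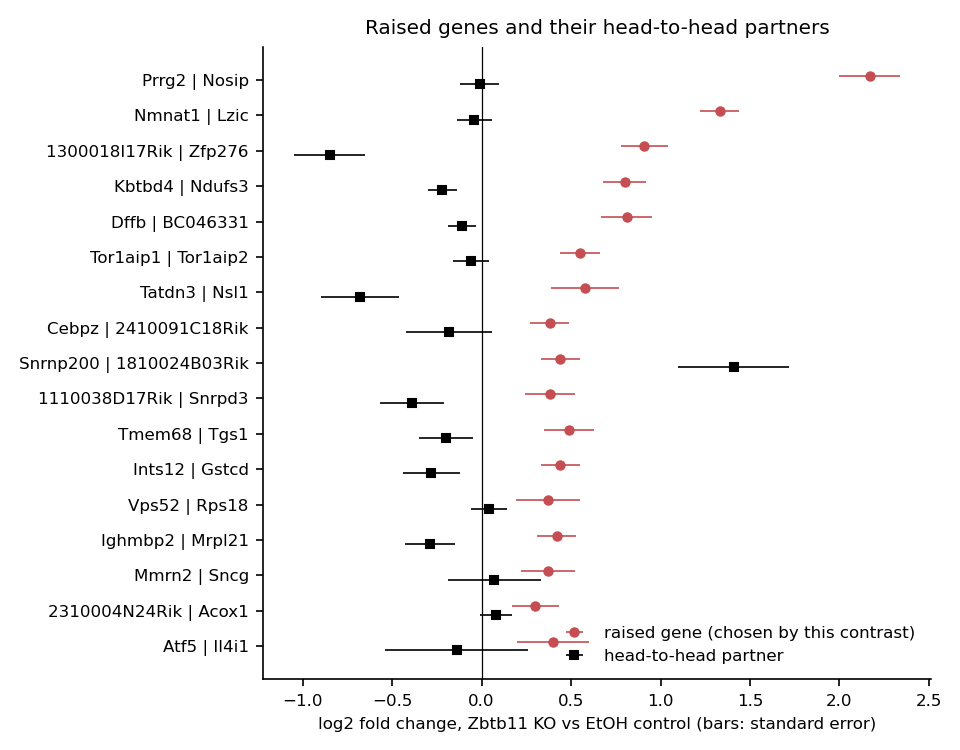
Log2 fold change between Zbtb11 KO and EtOH control with its standard error (x axis) for each of the 17 raised genes with a head-to-head partner (red circles, chosen by this contrast) and for the partner (black squares), 1 pair per line (y axis). Partners have a median of -0.14, from Zfp276 at -0.85 to 1810024B03Rik at 1.41.

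Counting every tested gene whose promoter overlaps the window of a raised gene, 16 of the 26 windows were shared, with 17 other genes in all, each on the opposite strand. By edgeR 1 of the 17 fell and 0 rose between KO and EtOH control (backgrounds 0.843% lower and 0.0558% higher), and with the block 5 fell and 1 rose (1.79% and 0.46%). The gene that fell in both fits was Snap47, a SNARE gene singled out after its values were seen, which overlaps the raised gene Jmjd4 (log2 fold change -0.53, SE 0.08, edgeR adjusted p = 0.0161). Jmjd4, a hydroxylase of the translation termination factor, was at 28, 34.4 and 30.5 CPM in the EtOH control and 40.1, 44.3 and 41.7 CPM in KO cells.

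Of 15 pathway lists chosen by hand, 6 held 1 raised gene each: Nmnat1 for NAD synthesis, Pigc for GPI anchor synthesis, Ufc1 for UFM1 conjugation, Acp2 for lysosome and autophagy, Phlda3 for p53 targets and Atf5 for the integrated stress response. The other raised genes were on none of the lists. In none of these 6 lists did another gene rise between KO and EtOH control in the unpaired edgeR fit. Among 13 tested genes of NAD synthesis Nmnat1 was alone past the threshold (median log2 fold change of the list -0.00). Among 27 of GPI anchor synthesis Pigc rose and Pigq fell, the latter at 12.3, 9.31 and 7.09 CPM in KO cells and 50.9, 51.9 and 49 CPM in EtOH control libraries (log2 fold change -2.45, SE 0.16, edgeR adjusted p = 0.000102), against 60.6 to 67.4 CPM in the 4OHT control. Both encode subunits of the enzyme that starts the pathway. Pigq was named after its values were seen. Among 7 tested genes of UFM1 conjugation Ufc1 was past the threshold in the unpaired edgeR fit (median log2 fold change of the list 0.07).

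Among 27 p53 targets 0 passed in the unpaired fit, and with the block Phlda3, Mdm2 and Ccng1 rose (edgeR adjusted p = 0.00155, 0.0145 and 0.0148). Mdm2, the ubiquitin ligase that limits p53, was at 172, 101 and 102 CPM in the EtOH control, 187, 125 and 137 CPM in KO cells and 146, 88.1 and 93.1 CPM in the 4OHT control, so its groups overlapped. Among 46 lysosomal and autophagy genes Acp2 alone was past the threshold, with the block, and among 31 genes of the integrated stress response Atf5 rose and Wars fell, with the block. The other lists held no raised gene: hypoxia and glycolysis, cholesterol synthesis, NRF2 targets, SRF and YAP targets, cell cycle inhibitors, interferon response, germline genes silenced by DNA methylation, naive pluripotency and 2-cell-like genes. In these 9 lists 0 genes were called between KO and EtOH control in the unpaired edgeR fit, with medians of -0.18 to 0.07 on the log2 scale. With the block 2 rose (Srxn1 and Ccng1) and 6 fell, 4 of hypoxia and glycolysis and 2 of cholesterol synthesis.

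Markers of other cell types were also followed. Between KO and EtOH control 0 markers of primed epiblast and early lineages (12 tested of 23), primitive endoderm (12 of 17), trophoblast (6 of 15) and fibroblast feeders (8 of 14) passed in either edgeR fit, and none was a raised gene. The summed level of the primitive endoderm markers was 838 to 866 CPM in EtOH-treated cells, 898 to 921 CPM in KO cells and 572 to 651 CPM in the 4OHT control, with 3 markers called higher in KO cells than in the 4OHT control, while none of the list was at 0 in all libraries and Sox17, Foxa2, Ttr and Afp stayed under 1 CPM. The part of such cells in the comparison with the 4OHT control was not tested. The summed levels of the others were 476 to 555, 476 to 571 and 474 to 644 CPM for early lineages in the EtOH control, KO and 4OHT control libraries, 56.3 to 64.9, 54.4 to 64.9 and 48.9 to 78.7 CPM for trophoblast, where Prl3d1 and Tpbpa were at 0, and 1152 to 1354, 1099 to 1250 and 1099 to 1404 CPM for feeders, where Lum was at 0.

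The raised genes were spread over 16 chromosomes, with at most 6 on one (chromosome 1). Within 100 kb of each other lay Ring1 and Vps52, 53808 bases apart. A lowered gene lay within 100 kb of 5 of the 38, from Snap47, overlapping Jmjd4, to Exosc4, 83956 bases from Parp10. The raised genes had a median of 3653 exonic bases, beside 3967 for eligible genes, and a median GC content around the start of 62.8%, beside 61% for eligible and 54.7% for lowered genes.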

How the data were processed

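The deposited values for RNA-seq are raw counts per gene (GENCODE vM1 identifiers). To make them, the authors used TrimGalore and PRINSEQ for trimming, STAR for alignment and HTSeq for counting. Coverage (signal) of ChIP-seq windows was deposited as normalised by the authors with DiffBind, from reads aligned to mm9 with Bowtie 1.1.2 per the labels. Peak lists were made by the authors with MACS2 inside an IDR pipeline, which keeps peaks reproducible between replicates, as 1 list per ChIP. Input libraries were not used here.

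CPM are relative to counts on genes. Reads that the files assign to no feature (25.3 to 31.6% of those in a file) were left out. Differential expression was tested with edgeR 4.0.16 in R 4.3.3 (TMM, over 1 CPM in at least 3 libraries, all 3 groups in one quasi-likelihood fit, two-sided F test, Benjamini-Hochberg adjustment over 14346 genes). Adjusted p values are from this fit unless the block, only 2 groups or a left-out replicate is named. Those are from separate edgeR fits, and with a replicate left out the filter was over 1 CPM in at least 2 libraries. SE is the fold change divided by the square root of F. DESeq2 1.42.0 was an alternative. Libraries with the same replicate number in the labels correlated at 0.43 to 0.82 after group means were removed, so numbers were taken as pairs and the block fit is given. Sequences were read from NCBIM37, and a window was matched to a promoter by an overlap of at least 1 base. With 3 libraries per group, precision is set by the spread between libraries, and members were counted at 32 reads or more in each library.

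Genes were named by a rule (the 12 largest smallest ratios, the 8 highest levels, the 8 highest coverages, those called in the 4OHT control, those at the threshold, those on pathway lists or listed by the study, and their partners). A result for 1 gene on these lists is not reported here. Genes named outside the rule are examples from counts or lists, chosen after their values were seen. The raised genes, lists and tests were chosen with earlier results of these data known.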

Additional observations from a re-analysis of the deposited data

How the results depend on the processing

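The number of raised genes moved most with the rule itself. It was 25 with TMM-adjusted library sizes, 112 with a mean CPM of 1 or more, 61 with a ratio of 1.2 and 9 with a ratio of 1.5, and 65 to 90 with a replicate left out (90 without replicate 1), while a mean CPM of 10 gave 26. The share with a Zbtb11-high window, added after seeing the data, was 80% with TMM, 24.1% at a mean CPM of 1, 49.2% at a ratio of 1.2, 88.9% at a ratio of 1.5 and 28.9 to 43.1% with a replicate left out. Between KO and EtOH control, 8 of the 38 genes and 129 of all genes were called in the unpaired fit. With DESeq2 the counts were 14 and 180, and with the replicate block 31 and 323. With a replicate left out they were 0 to 18 and 13 to 212. Between the 4OHT and EtOH controls the counts were 2 and 581, then 14 and 4815 with the block, 0 and 171 with only the 2 groups compared, 1187 of all genes with DESeq2, and 0 to 6 and 13 to 2420 with a replicate left out. Between KO and 4OHT control they were 15 and 925, then 30 and 5009 with the block, 1469 of all genes with DESeq2, 570 of all with only the 2 groups, and 4 to 25 and 82 to 2645 with a replicate left out. No called gene among the 38 reversed its direction under these alternatives. The counts above both controls (22 to 30), with a promoter window (26 to 28) and with a head-to-head partner (15 to 18), and the median coverage (654 to 769), stayed within the limits set for them. The causes of the changes were not tested. With 3 libraries per group, depth of 14301457 counts or more and 32 or more counts per raised gene and library, the limit on these calls by expression level was not measured.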
